A study of Mus musculus with 12 samples.

Results

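Input RNA of mouse late spermatocytes was compared between Miwi ADH/- and Miwi +/- cells, gene by gene, as the RNA present before any immunoprecipitation (IP). The members are the 12246 genes, of 20345 Ensembl gene IDs in the table, that reached at least 1 RPKM in at least 2 of its 6 columns. RPKM divides a gene's reads by its length in kilobases and by the depth of the column in units of 1000000 reads. The difference is log2(RPKM + 1) in the Miwi ADH/- input minus log2(RPKM + 1) in the Miwi +/- input, so that positive values are higher in the mutant. The pseudocount of 1 makes differences of genes around 1 RPKM look smaller than they are.

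MIWI is a PIWI protein of male germ cells, made from the pachytene stage of meiosis to the round spermatid. It binds the pachytene piRNAs, small RNAs that guide PIWI proteins to complementary transcripts, and with a suitable match it can cut the paired RNA through its catalytic site. Late spermatocytes are cells in the last part of meiotic prophase, which store many transcripts that the later spermatids translate.

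Per the labels, 12 samples of ribosomal-RNA-depleted RNA form 6 groups of 2, from the input and the MIWI IP of each of 3 genotypes. Miwi +/- carries 1 wild-type copy of the gene and 1 null copy. Miwi ADH/- carries the ADH allele, known from earlier work as a catalytic-site mutant, over the null copy, and Miwi -/- carries no working copy, so all 3 genotypes share the null allele. The sources used here do not give the ages and strains of the mice. The protocol names testes or sorted cells as the starting material without saying which sample came from which. The table holds 1 column per group with no replicate number. No difference below therefore has a replicate check or a p-value, and counts are by size.

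The IDs are not paired with gene names in the table, and 0 of them matched the reference gene table used here. Gene function, germ cell stage, the level of the targeted gene and the markers of other testis cells were therefore not analysed here. The mixture of cell types in each input was not tested. In bulk RNA, a change in the number of cells of a type and a change in RNA per cell cannot be told apart. Members are described instead by their level, their length, and their values in the 4 columns that the comparison does not use.

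RPKM values of a gene step in units of 1 read, which gave whole reads for 100% of the 12246 genes. The Miwi ADH/- input held 2606519 reads in these genes and the Miwi +/- input 3888294, with medians of 66 and 97 reads per gene. By the steps, 1 read was worth 1.36 times as many RPKM in the Miwi ADH/- input as in the Miwi +/- input, and the shallower column is the mutant. The ratios of reads below carry exact 95% intervals (Clopper-Pearson), which compare these columns and cover the error of counting alone, because reads copied by PCR from 1 molecule are not independent.

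Most transcripts stood close together in both inputs. Of the 12246 genes, 7540 (61.6%) differed by less than 1.5-fold, and the middle 50% of differences ran from -0.55 to 0.29 on the log2 scale. The median was -0.16. At least 2-fold apart were 955 genes higher in Miwi ADH/- (7.80% of the genes) and 909 lower (7.42%). Higher genes outnumbered lower ones more clearly at larger changes: at least 4-fold apart were 195 genes higher and 49 lower, and at least 8-fold apart 28 higher and 11 lower. The upper tail was thus longer, with the 95th percentile at 1.26 and the 5th at -1.13. The counts and their balance depend on the pseudocount and the scale. With a pseudocount of 5 there were 308 higher and 144 lower genes (68.1% higher), and with 0.1 there were 1420 and 1642. Counted from the median of all genes, 70.0% of the counted genes were higher, against 51.2% as deposited, and with equal column totals 44.8% were.

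**Figure D1:**
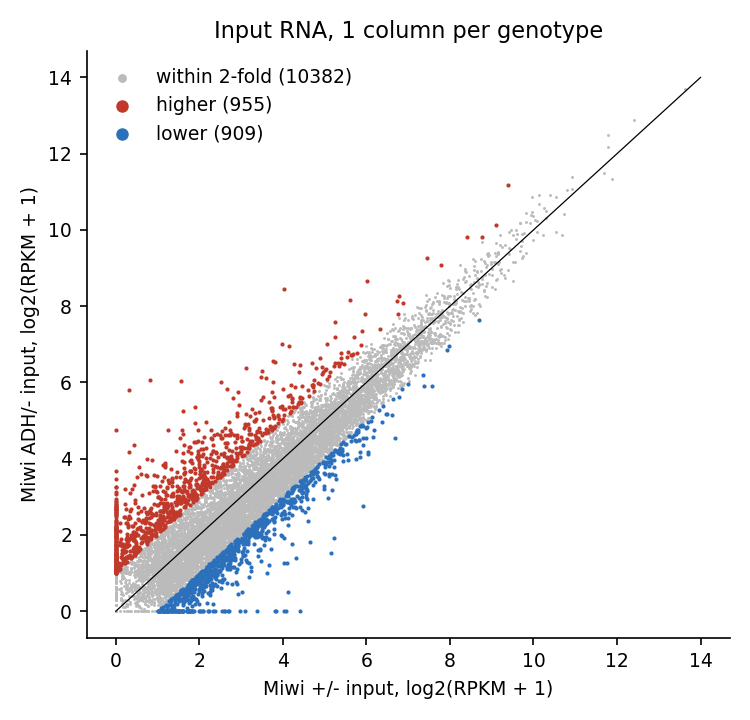
Each point is 1 of 12246 genes, with log2(RPKM + 1) in the Miwi +/- input on the horizontal axis and in the Miwi ADH/- input on the vertical axis, and the line marks equal values. The 955 genes at least 2-fold higher (red) spread farther from the line than the 909 lower genes (blue), and both are most frequent at low levels.

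The filter and the size limit each have a sharp edge. The gene nearest to the filter on the inner side had 1.0004 RPKM in its second-highest column, and the nearest one left out had 0.9998 RPKM. The smallest difference counted as higher was 1.0004, and the largest not counted was 0.998. Both inputs had at least 1 RPKM for 10370 of the members, the Miwi ADH/- input alone for 686 and the Miwi +/- input alone for 796. A further 394 members were below 1 RPKM in both inputs and were kept through other columns.

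Most of these differences were larger than counting error, but the intervals use the same reads that chose these genes. Genes chosen for a difference of at least 2-fold will often have an interval away from 1. The intervals thus give no independent support, and their share over all 12246 genes was not counted. The interval of the ratio lay above 1 for 870 of the 955 higher genes and below 1 for 843 of the 909 lower genes. It lay wholly beyond 2-fold for 477 of the higher and 294 of the lower genes. Among the genes at least 4-fold apart, the interval lay beyond 2-fold for 171 of 195 higher genes and for 29 of 49 lower genes.

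Well-sampled genes were called less often. Of the 5584 genes with at least 200 reads in both inputs summed, 165 (2.95%) were at least 2-fold higher and 233 (4.17%) lower. Their median difference was -0.21. The interval lay below 1 for 2705 of them, above 1 for 1158 and included 1 for 1721. At this depth many genes thus differed by less than 2-fold but by more than counting error, more of them downwards on the deposited scale, and without replicate values the spread between samples that such differences must be read against is not known.

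Some members were read in 1 input only. No read fell in the Miwi +/- input for 155 of the 955 higher genes, which had a median of 7 and at most 45 reads in Miwi ADH/-. Set against a floor of 3 reads per column, which leaves out the counting error of the other column, 102 of them were at least 2-fold higher, and the farthest was at least 20.5-fold higher. Of the 909 lower genes, 87 had no read in the Miwi ADH/- input, with a median of 8 and at most 38 reads in Miwi +/-. Against the same floor 43 of these were at least 2-fold lower, and the farthest was at least 9.28-fold lower. In the other columns, 62 of the 155 genes (40%) had reads in the Miwi +/- IP, against 90.3% of all kept genes, and 32 of the 87 (36.8%) had reads in the Miwi ADH/- IP, against 94.9%, so part of these transcripts were read in the genotype whose input had none. The filter favours such reads, because a gene without reads in 1 of these inputs is kept only through an IP or the Miwi -/- input.

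The changed transcripts were mostly of low abundance. Level here is the mean of log2(RPKM + 1) over both inputs, turned back into RPKM. Under 2 RPKM, 316 of 2597 genes were higher (12.2%) and 291 lower (11.2%). These genes had a median of 26 reads over both inputs. From 20 to under 50 RPKM, 75 of 1821 genes were higher and 75 lower, 4.12% each, with a median of 608 reads. At 100 RPKM and over, 14 of 672 genes were higher (2.08%) and 5 lower (0.744%). The share of genes counted thus fell from the lowest class to the highest, in which higher genes outnumbered lower ones. The part of read number in this fall was not tested.

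**Figure D2:**
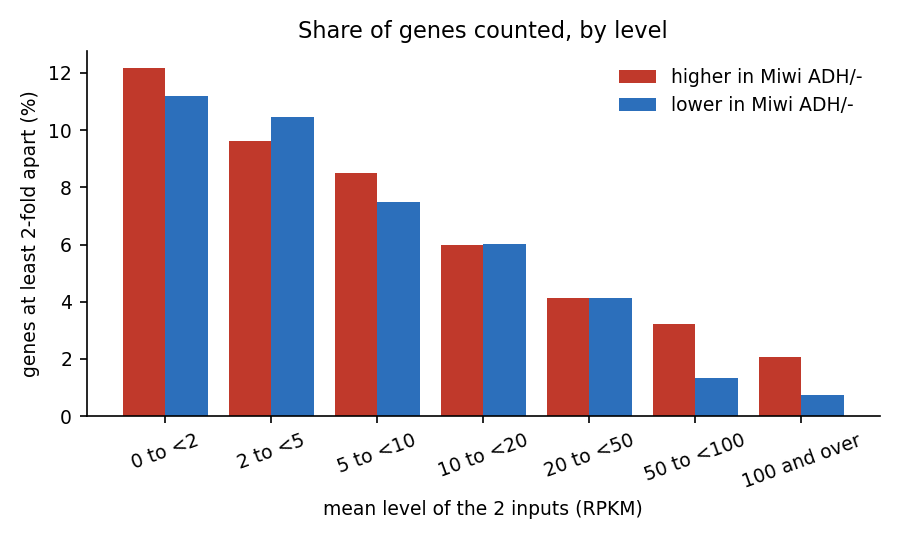
Bars give the percentage of genes at least 2-fold higher (red) or lower (blue) in the Miwi ADH/- input, by classes of the mean level of both inputs in RPKM. The share of higher genes falls from 12.2% under 2 RPKM to 2.08% at 100 RPKM and over, and that of lower genes from 11.2% to 0.744%.

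The 955 higher genes made up 6.01% of the summed RPKM of all kept genes in the Miwi ADH/- input and 1.90% in the Miwi +/- input. The most abundant reached 2296 RPKM in Miwi ADH/-. The 909 lower genes made up 1.18% and 3.23%, and the most abundant of them had 412 RPKM in Miwi +/-. These shares describe the genes chosen by the comparison itself and have no independent support. In the Miwi -/- input, which the comparison does not use, the higher genes made up 1.92% and the lower genes 2.37%.

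Higher genes were short. The read step of a gene also gives its length relative to that of the median kept gene. The median length was 0.532 of it for the 955 higher genes and 0.849 for the 909 lower genes. Genes shorter than 0.5 of the median length formed 46.1% of the higher set (440 genes), 22.8% of the lower set (207 genes) and 17.0% of all kept genes. The direction was not the same in all short genes. From 0.25 to under 0.5 of the median length, 309 of 1517 genes were higher (20.4%) and 113 lower (7.45%). Below 0.25 both directions were frequent, with 131 of 560 genes higher (23.4%) and 94 lower (16.8%), on a median of only 17 reads over both inputs. A length comes out too short where the reads of a gene share a common divisor, which is likelier with few reads and empty columns. The Miwi -/- input was empty for 24.6% of the higher, 3.85% of the lower and 4.45% of all kept genes. How many lengths were affected was not tested.

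The excess of higher genes in the second-shortest class was also present among well-read genes. Relative to the median difference of -0.16 of all kept genes, the class from 0.25 to under 0.5 lay 0.35 higher at levels under 5 RPKM, 0.44 higher from 5 to under 20 RPKM and 0.35 higher at 20 RPKM and over. In the last of these groups, 62 of 563 genes were at least 2-fold higher (11.01%) and 12 lower (2.13%), with a median of 545 reads. The shortest class had no such constancy. Measured from the overall median, it lay at 0.34 under 5 RPKM, at -0.07 from 5 to under 20 RPKM and at 0.11 at 20 RPKM and over. Genes of 1 to under 2 median lengths lay below the overall median at all 3 levels, at -0.04, -0.13 and -0.16 from it. Whether library preparation or RNA quality differed between the columns by length was not tested.

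**Figure D3:**
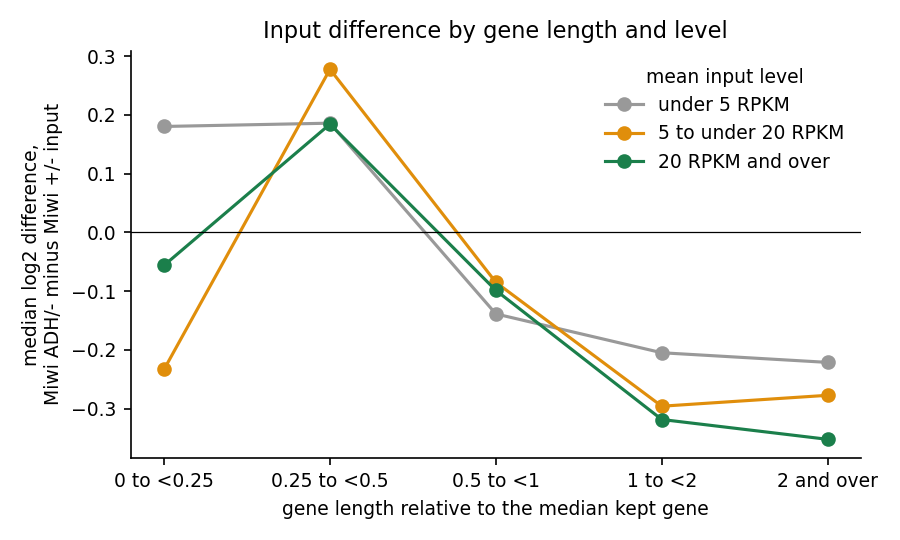
Points give the median log2 difference (Miwi ADH/- minus Miwi +/- input) on the deposited scale, for 5 classes of gene length relative to the median kept gene, and lines join the classes at 3 ranges of mean input level. At all 3 levels the class from 0.25 to under 0.5 is the highest, at 0.19, 0.28 and 0.18, and the longer classes lie below 0.

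The IP columns of the same genotypes give another measure of these transcripts. An IP is not an input, and cells or preparations common to both were not stated. The IP columns also entered the filter, which reads all 6 columns: a gene at least 2-fold higher in both the input and the IP of Miwi ADH/- always passes it, whereas a gene high in that input alone does not. The IP values are therefore given first for the 12816 genes that reached 1 RPKM in 1 or both of these inputs, a filter chosen after seeing the data, in which the IPs have no part. Among these, 1337 genes were at least 2-fold higher in the Miwi ADH/- input and 1119 lower.

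Of the 1337 higher genes, 498 (37.2%) also stood at least 2-fold above Miwi +/- in the IP of Miwi ADH/-, against 16.6% of the 12816 genes. In the opposite direction stood 48 of them (3.59%), against 6.47% of all. Their median IP difference was 0.56, and that of all these genes 0.18. With IP differences counted from that median, 436 (32.6%) were higher and 68 (5.09%) lower, against 12.6% and 8.97% of all. No read fell in either IP for 22.2% of the higher genes, against 5.93% of all, so that part of them could not be followed at this depth.

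Of the 1119 lower genes, 179 (15.996%) were also at least 2-fold lower in the IP of Miwi ADH/-, against 6.47% of all, and 88 (7.86%) were higher, against 16.6%. Their median IP difference was -0.04, where that of all these genes was 0.18. With IP differences counted from that median of all, 234 (20.9%) were lower and 69 (6.17%) higher, against 8.97% and 12.6% of all. No read fell in either IP for 19.3% of the lower genes, against 5.93% of all. Among genes with at least 50 reads in both IPs summed, 269 of 483 higher genes (55.7%) and 66 of 437 lower genes (15.1%) kept their direction at 2-fold, where 15.98% and 3.97% of 8721 genes were higher and lower. Whether the higher and lower sets differ in this respect was not tested. The limit of 50 reads is set on the IP columns themselves, so these shares are not independent of it. The Miwi ADH/- IP is the deeper, with 3675525 reads in the kept genes against 1710146 in Miwi +/-, so genes high there pass more easily. Among the members under the 6-column filter the shares that kept their direction were larger, 52.1% of the 955 higher genes and 19.7% of the 909 lower genes, beside 18.0% and 7.48% of all kept genes, which the filter itself raises.

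Across the range of input differences among these 12816 genes, median IP differences rose up to a point and then changed little. The median IP difference was -0.08 for the 1052 genes from 2-fold to under 4-fold lower in the Miwi ADH/- input and 0.18 for the 3836 genes at most 0.5 lower or equal on the log2 scale. It was 0.40 for the 2628 genes less than 0.5 higher, 0.59 for the 1223 genes from 0.5 to under 1 higher, 0.55 for the 1047 genes from 2-fold to under 4-fold higher and 0.68 for the 290 genes at least 4-fold higher. The 67 genes at least 4-fold lower had a median of 0.00. Genes without a read in either IP have an IP difference of 0, and formed 22.2% of the higher and 19.3% of the lower genes. Their part in these medians was not tested. Among the 12246 kept genes the median went on rising. It was 0.62 from 0.5 to under 1 higher, 0.95 from 2-fold to under 4-fold higher and 1.44 at least 4-fold higher. The 49 kept genes at least 4-fold lower again had 0.00. The filter of the kept genes favours those high in both the input and the IP of Miwi ADH/-. Across the 12816 genes, which are not independent replicates, Pearson's r between the input and the IP difference was 0.291 and Spearman's rho 0.336. Each gene has the same length in all columns, and both differences share the genotypes.

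**Figure D4:**
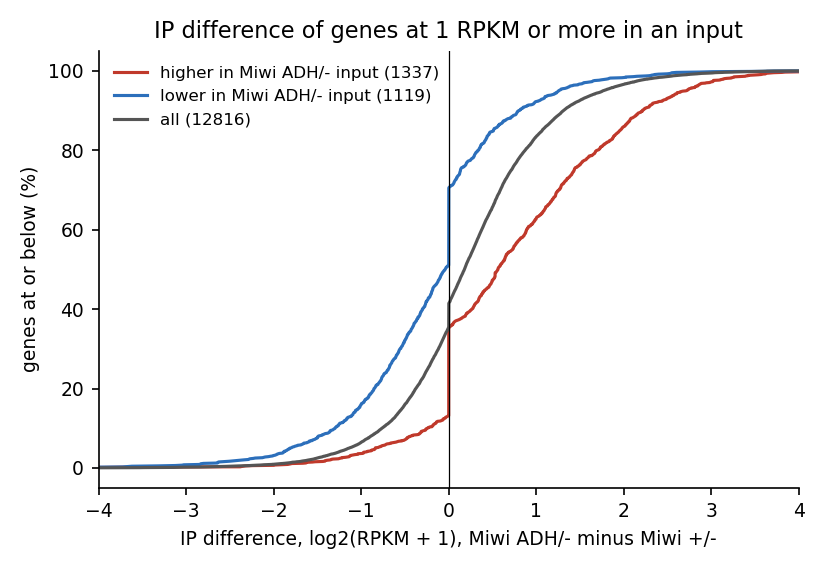
Curves give the cumulative percentage of genes at or below each IP difference, log2(RPKM + 1) in the Miwi ADH/- IP minus the Miwi +/- IP, among 12816 genes with at least 1 RPKM in an input (grey), with those at least 2-fold higher (red, 1337) or lower (blue, 1119) in the Miwi ADH/- input. The red curve lies to the right, with a median of 0.56, and the blue curve to the left, with a median of -0.04, of the grey curve with a median of 0.18; steps at 0 are genes with equal values or no reads in both IPs.

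In the Miwi -/- input, which also entered the filter, the higher and the lower genes mostly stood nearer to the Miwi +/- than to the Miwi ADH/- level. The higher genes had median levels of 7.36 RPKM in Miwi ADH/-, 1.60 in Miwi +/- and 1.28 in Miwi -/-. The lower genes had 1.74, 5.96 and 4.19 RPKM in the same order. On the log2 scale the Miwi -/- value was nearer to Miwi +/- for 644 of the 955 higher genes (67.4%) and for 619 of the 909 lower genes (68.1%), against 62.4% of all kept genes, so these shares are not far from the background.

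The higher genes were not of 1 kind in that genotype. For 493 of the 955 (51.6%) the Miwi -/- input was within 2-fold of Miwi +/-, against 85.0% of all kept genes. For 229 it was at least 2-fold above Miwi +/-, a larger share than the 4.47% of all kept genes. For 233 it was at least 2-fold below, a larger share than the 10.6% of all. Both mutant comparisons use the same Miwi +/- column, so an unusually low or high value there moves them together. The 233 genes had median levels of 17.5 RPKM in Miwi ADH/-, 4.58 in Miwi +/- and 0.155 in Miwi -/-, an order that the choice of these genes fixes.

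Of the 909 lower genes, 747 (82.2%) were within 2-fold of Miwi +/- in the Miwi -/- input, close to the 85.0% of all kept genes. At least 2-fold below it were 155, a larger share than the 10.6% of all kept genes. At least 2-fold above it were 7, a smaller share than the 4.47% of all. The 747 genes had median levels of 1.96 RPKM in Miwi ADH/-, 6.21 in Miwi +/- and 5.09 in Miwi -/-. Their median length was 0.920 of that of all kept genes, against 0.495 for the 155 genes low in both mutant inputs.

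ENSMUSG00000057657 and ENSMUSG00000045999 had the largest increases among genes whose level was no lower than the median of 6.99 RPKM. ENSMUSG00000057657 had 54.7 RPKM in the Miwi ADH/- input, 0.244 in the Miwi +/- input and 0.258 in the Miwi -/- input, from 164 reads, 1 read and 1 read. The transcript was thus nearly confined to the Miwi ADH/- column among the 3 inputs. Its ratio of Miwi ADH/- to Miwi +/- was 224, and its interval, 39.6 to 8895, is wide because Miwi +/- had a single read. Of the IPs too, only that of Miwi ADH/- was high, with 30.3 RPKM in Miwi ADH/- (175 reads), 0 in Miwi +/- and 0.439 in Miwi -/- (1 read). Against a floor of 3 reads the Miwi ADH/- IP was at least 32.5-fold above the Miwi +/- IP, and the exact 95% lower limit of the ratio was 26.1.

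ENSMUSG00000045999 was as high in the Miwi ADH/- input but not in the IP. Its inputs stood at 66.3 RPKM in Miwi ADH/- (260 reads), 0.748 in Miwi +/- (4 reads) and 0.986 in Miwi -/- (5 reads), a ratio of 88.7 between the first pair with an interval of 34.2 to 328. Its IP levels were 1.99 RPKM in Miwi ADH/- (15 reads) and 1.90 in Miwi +/- (8 reads), a ratio of 1.04 with an interval of 0.415 to 2.84, and no read in Miwi -/-. The increase of this transcript was thus seen in 1 column alone.

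The 2 largest decreases by the same rule rest on few reads and on short genes. ENSMUSG00000087544, of 0.178 median lengths, had 1.90 RPKM in the Miwi ADH/- input (3 reads), 34.8 in Miwi +/- (75 reads) and 1.47 in Miwi -/- (3 reads). It was 18.3-fold lower in Miwi ADH/- than in Miwi +/-, with an interval of 6.03 to 90.8, and the Miwi +/- input was the only high column of the 6, since the IPs held at most 1 read each. ENSMUSG00000064602, of 0.0816 median lengths, had 2.76 RPKM in the Miwi ADH/- input (2 reads), 36.4 in Miwi +/- (36 reads) and 5.33 in Miwi -/- (5 reads). It was 13.2-fold lower, with an interval of 3.40 to 113. In the IPs Miwi ADH/- was again below Miwi +/-, with 5.01 RPKM in Miwi ADH/- (7 reads) and 20.6 in Miwi +/- (16 reads), 4.11-fold lower with an interval of 1.60 to 11.8. The Miwi -/- IP was the lowest, with 1.82 RPKM (1 read).

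**Figure D5:**
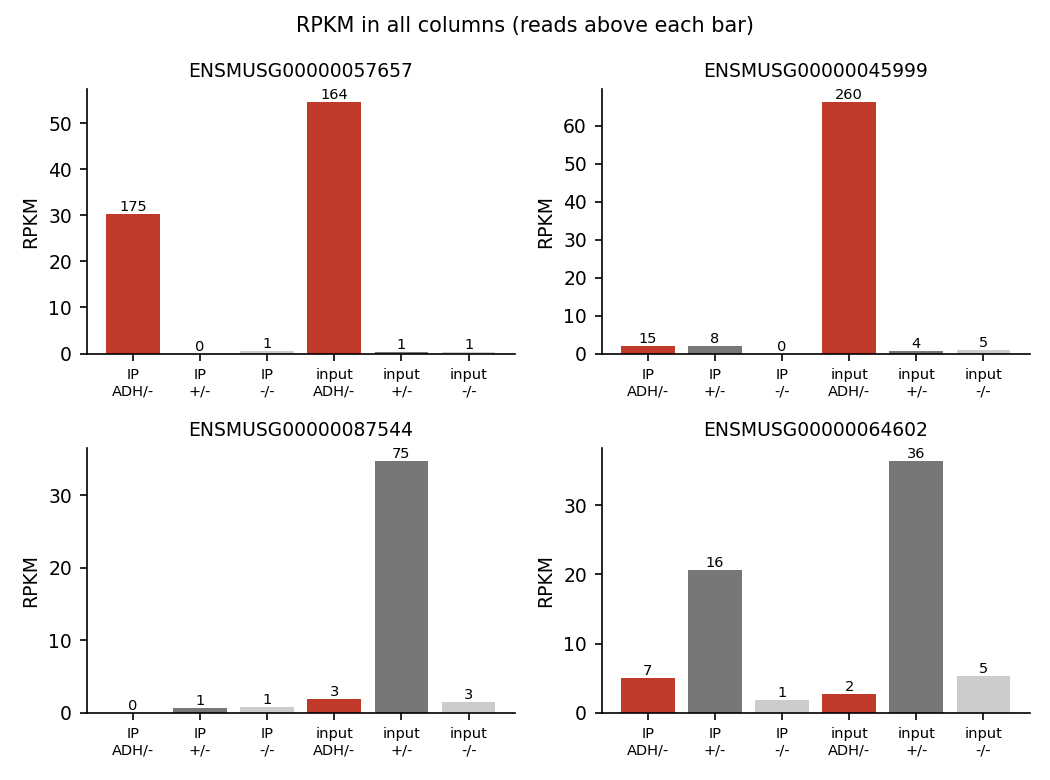
Bars give RPKM of the 4 named genes in the 3 IP and the 3 input columns (red Miwi ADH/-, dark grey Miwi +/-, light grey Miwi -/-), with reads above each bar; each bar is 1 column, so there is no error bar. ENSMUSG00000057657 is high in the Miwi ADH/- input and IP, with 164 and 175 reads, whereas ENSMUSG00000045999 is high in the Miwi ADH/- input only, and the lower pair is highest in the Miwi +/- input.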

How the data were processed

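The authors deposited 1 table of RPKM with 6 columns, 1 per group. Per the file headers the unit is named for the Miwi +/- columns, and it was assumed for the others, which step in like proportions for each gene. The submitters' processing notes name TopHat, Bowtie and the build mm9 without versions. The sources used here do not give the counter, the annotation or whether a column is 1 library or pooled.

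Reads per gene were taken as the smallest whole numbers that fit its values in all columns within 0.002 reads plus 1e-07 of the read number. Where the reads of a gene share a common divisor, its reads come out too low, its interval too wide and its length too short. This is likeliest for the 143 kept genes with values in 2 columns only, but can occur with more columns. The step leaves read totals and lengths open by a common factor, so lengths are relative. The recovery was tested on data simulated from the recovered reads and lengths, which checks the procedure but not those reads and lengths. Python 3.11.15, NumPy 2.4.6, pandas 2.3.3 and SciPy 1.17.1 were used.

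Named are the 2 highest and 2 lowest IDs at or above the median level and at least 2-fold apart. The 25 gene and marker lists gave no value, since no ID could be named. The members, lists and classes were chosen with earlier results of these data known. Pseudocount, filter, centring, scaling and fold limit were varied.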

Additional observations from a re-analysis of the deposited data

How the results depend on the processing

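No paired analysis was possible because the table holds 1 column per group, with no replicate number, and no sample could be left out. The counts of 955 higher and 909 lower genes changed most with the pseudocount and with the size of change counted. A pseudocount of 0.1 gave 1420 higher and 1642 lower genes, a pseudocount of 5 gave 308 and 144, and counting at 3-fold gave 372 and 146. At least 1 RPKM in both inputs left 581 and 587, and at least 5 RPKM in at least 1 input left 660 and 526. Counted from the median of all genes, there were 1273 and 546. Scaling by the median of ratios gave 1279 and 620, equal column totals 864 and 1064, and no filter 1337 and 1119, as did at least 1 RPKM in at least 1 of the 2 inputs. All 955 and all 909 genes remained with a pseudocount of 0.1 and with no filter. This was fixed in advance, since a lower pseudocount only enlarges differences and dropping a filter removes no gene. With a pseudocount of 5, 308 and 144 of them remained. The genes that kept their direction in the IPs, 498 higher and 179 lower, became 812 and 526 with a pseudocount of 0.1, 109 and 15 with a pseudocount of 5, 301 and 104 with 1 RPKM in both inputs, 327 and 92 with 5 RPKM in at least 1 input, and 152 and 22 at 3-fold. With no filter, or with 1 RPKM in at least 1 input, they stayed at 498 and 179 while the sets grew, so the shares fell from 52.1% to 37.2% and from 19.7% to 15.996%. These settings for the IPs were chosen after seeing the data. The 4 named genes, chosen as extremes, kept their direction in all 34 values. A change of filter leaves a gene's value as it is, and no pseudocount can turn its sign, so those settings are no check. Centring and scaling shift all genes nearly alike, by little beside differences of this size, and are a weak check. In 33 values the move was no more than the distance from the middle to an end of the counting interval on the log2 scale. This limit is loose for thinly read genes. ENSMUSG00000057657 stayed within it while going from 5.48 to 7.31 with a pseudocount of 0.1 and to 3.51 with 5. ENSMUSG00000045999 moved to 3.63 with a pseudocount of 5. A lower pseudocount weights thinly read genes more, and depth limits those most.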
